A study of Homo sapiens with 10 samples.

Results

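The human ATP-binding cassette (ABC) transporters other than ABCA1 and ABCG1 were followed in PC3 cells, a line grown from a bone metastasis of prostate cancer. Members were all gene rows whose symbol is ABC, a subfamily letter from A to G and a number, which gave 45 rows of 44 symbols among the 60558 gene rows of each table once ABCA1 and ABCG1 had been left out by name. Of these, 43 rows of 42 symbols are reported here, and ABCF2 is listed under 2 Ensembl identifiers. The reported rows divide into 11 ABCA, 8 ABCB, 12 ABCC, 3 ABCD, 1 ABCE, 4 ABCF and 4 ABCG rows. In 5 libraries the PC3 cells had spent 3 days with human bone marrow adipocytes (cocultivated), and in 5 others they had been kept without them (non-cocultivated). Per the labels the PC3 cells are wild type in both groups, and batches 1 to 5 each hold 1 library of either group, so libraries are named by group and batch. The labels do not say how the adipocytes were obtained, how the PC3 cells were parted from them, or whether libraries stem from separate cultures. The p-values therefore measure the spread between these libraries, which may be technical, in 1 cell line.

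ABC proteins bind and hydrolyse ATP in a pair of conserved nucleotide-binding domains, and most use that energy to move a substrate across a membrane. The A subfamily handles lipids, the B subfamily holds drug and peptide pumps and the mitochondrial transporters, and the C subfamily holds the multidrug resistance proteins that export organic anions along with the regulators of potassium channels. The D subfamily carries acyl groups into peroxisomes, E and F proteins lack membrane domains and act on ribosomes, and the G subfamily exports sterols and drugs. In cancer cells the family is best known for drug efflux by ABCB1, ABCC1 and ABCG2.

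Each library held 39074949 to 51515712 expected counts, which are RSEM's estimates of the reads of each gene after reads of ambiguous origin have been divided by likelihood. Where no read was counted, up to 3 remain possible, a limit of 0.0582 to 0.0768 CPM (counts scaled to library size) that covers counting error only. Levels within a gene are given as CPM on library sizes scaled by TMM, and levels between genes as TPM, RSEM's share of all transcripts, which is per length. Marker lists of 5 cell types were set against the labelled cells. The summed prostate epithelial markers lay at 405 to 485 CPM in cocultivated and 702 to 758 CPM in non-cocultivated libraries, led by KRT18 (252 against 385 CPM), HOXB13 (93.3 against 187 CPM) and KRT8 (58.1 against 112 CPM). KLK3 and FOLH1 had no count in any library. The summed adipocyte markers lay at 159 to 288 CPM in cocultivated and 53.5 to 79.5 CPM in non-cocultivated libraries. FABP4 (149 against 27.1 CPM) and PLIN4 (49.0 against 22.6 CPM) carried this difference. LIPE was also called higher (2.07 against 1.28 CPM, edgeR adjusted p = 0.00145), and CIDEC was called lower (2.26 against 4.15 CPM, edgeR adjusted p = 0.00585). CFD had 4.08 against 4.13 CPM, CIDEA and THRSP had no count, and ADIPOQ, LEP and LPL had at most 2 counts in any library. Stromal markers summed to 4.30 to 4.98 CPM against 8.08 to 9.65 CPM (COL1A1 1.96 against 4.11, LEPR 1.64 against 1.52 and LUM 0.520 against 1.93 CPM), with no marker at 0 in all libraries. Endothelial markers summed to 18.8 to 26.0 CPM against 31.7 to 43.6 CPM (PECAM1 11.1 against 10.2, KDR 10.3 against 24.1 and TEK 1.47 against 0.809 CPM), again with none at 0 throughout. Haematopoietic markers summed to 42.6 to 50.1 CPM against 32.9 to 39.4 CPM, nearly all of it CD68 (45.8 against 32.5 CPM), with LYZ at 0.566 against 2.18 CPM, CD34 at 0.0801 against 0.0794 CPM, and TYROBP, MS4A1 and CD3E at 0. These sums moved with the groups, and their part in the results on the transporters was not tested. In such bulk samples fewer cells of a type and less RNA per cell cannot be told apart.

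The cocultivated libraries held more RNA of the exporters ABCC3 and ABCC1, the potassium channel regulator ABCC9, the neighbouring lipid transporters ABCA5 and ABCA10 and the mitochondrial transporter ABCB8. They held less of the lipid transporters ABCA2 and ABCA3, the mitochondrial transporters ABCB6 and ABCB10, the lysosomal peptide transporter ABCB9 and the translation factor ABCF1. Of the 43 rows reported, 27 passed the filter on low counts. Among these, 6 were higher and 6 lower at an adjusted p under 0.05 (edgeR's quasi-likelihood test with Benjamini-Hochberg adjustment over the 15690 genes tested), with 10 lower when library totals replaced TMM. The share of all tested genes that passed was 33.6%, with 17.9% higher and 15.8% lower, and 44.4% of these tested member rows passed. The median log2 fold change, cocultivated over non-cocultivated, was -0.05 over the tested members and -0.01 over all tested genes. With batch as a block, 6 members were higher and 9 lower (44.4% of all tested genes were called in that fit), the added ones being ABCA13, ABCD3 and ABCE1. In CPM the 5 cocultivated and the 5 non-cocultivated libraries did not overlap for 10 of the 27 tested members (37.0%), against 25.4% of all tested genes, and these were the 6 higher members and 4 of the 6 lower ones.

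**Figure D1:**
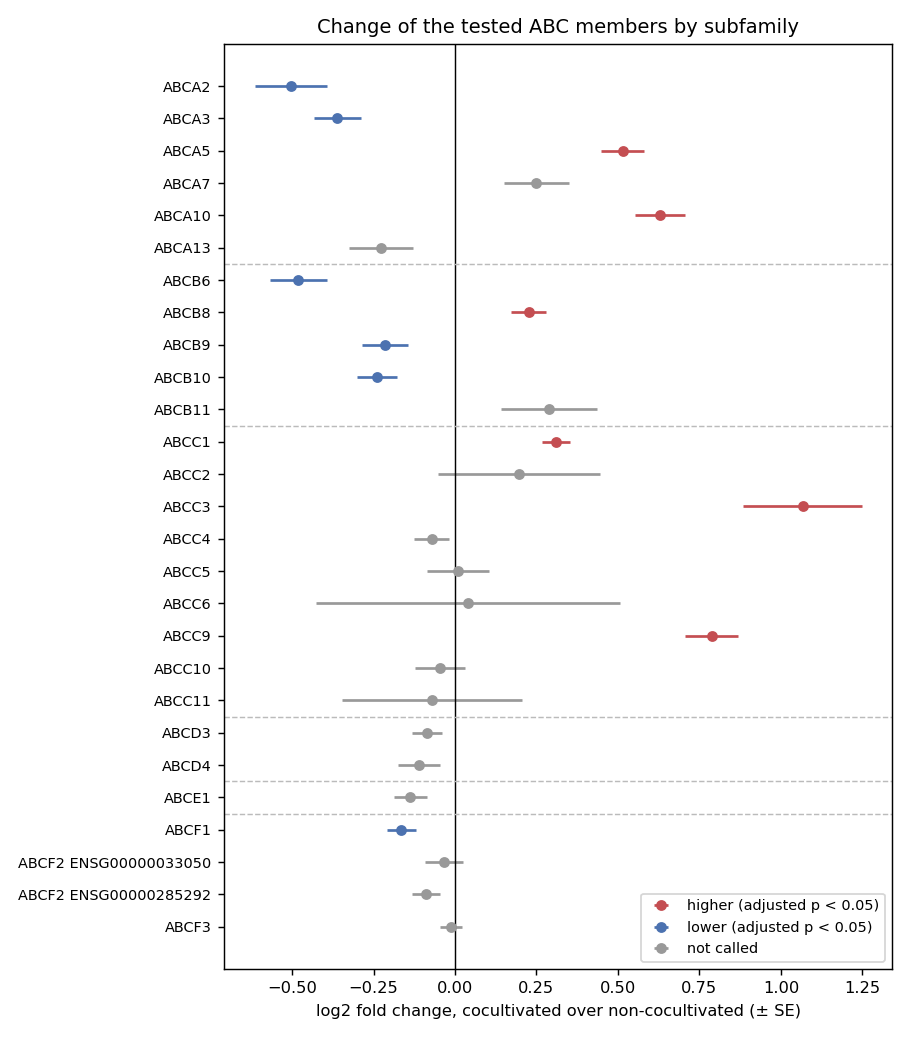
Log2 fold change, cocultivated over non-cocultivated (x axis), of the 27 tested member rows (y axis, subfamilies parted by dashed lines), with bars of 1 SE (n = 5 and 5). Red points are the 6 members called higher, blue points the 6 called lower and grey points the 15 not called, with ABCC3 farthest to the right at 1.07 and ABCA2 farthest to the left at -0.50.

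The levels of the members spanned more than 3 orders of magnitude in TPM. ABCE1 was the most abundant, at 141 ± 15.8 TPM in cocultivated and 164 ± 4.48 TPM in non-cocultivated cells (mean ± SD, n = 5 each), and ABCF1 was second at 60.9 ± 5.82 against 72.4 ± 2.59 TPM. ABCD3 followed at 50.1 ± 3.14 against 57.2 ± 2.05 TPM, and the ranges of ABCD3, the 2 ABCF2 rows and ABCF3 overlapped one another in part. The mitochondrial transporter ABCB8 came next, at 30.0 ± 1.47 against 27.0 ± 1.28 TPM. The first transporter of the plasma membrane in this order was ABCC1, with 19.4 ± 0.836 against 16.5 ± 1.27 TPM. Every called member had at least 1 TPM in every library, and the lowest of them were ABCC9 and ABCA3. ABCC2, ABCB11, ABCC11 and ABCC6, the lowest tested members, stayed under 0.7 TPM in all 10 libraries.

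**Figure D2:**
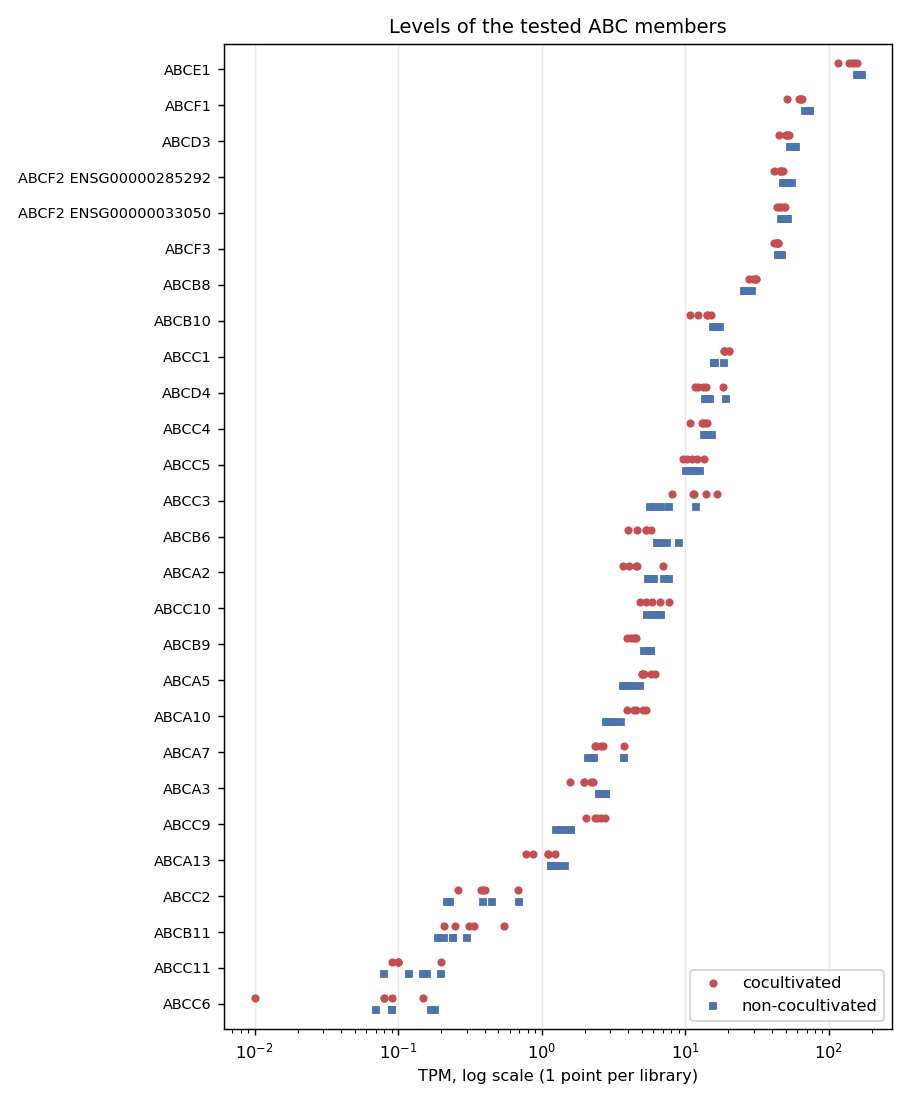
TPM per library on a log scale (x axis) of the 27 tested member rows (y axis), ordered by their mean in non-cocultivated cells. Circles are the 5 cocultivated and squares the 5 non-cocultivated libraries, from ABCE1 above 100 TPM to ABCC6 at 0.01 to 0.18 TPM.

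In the ABCC subfamily 3 of 9 tested members were higher and none lower, a share of 33.3%, near the 33.6% of all tested genes. ABCC3 is MRP3, an exporter of glucuronides and bile acids at the basolateral membrane of liver and gut cells. It had 43.4, 30.7, 26.8, 26.0 and 44.6 CPM in cocultivated libraries 1 to 5, against 23.0, 14.4, 13.2, 14.8 and 16.4 CPM in the non-cocultivated libraries of the same batches. The lowest cocultivated library lay above the highest non-cocultivated one, and library 1 was the highest of the non-cocultivated ones. The change was 2.09-fold (log2 1.07 ± 0.18 SE, edgeR adjusted p = 5.76e-04), and the log2 difference within batches ran between 0.81 and 1.44. In TPM the groups overlapped, with 12.3 ± 3.18 in cocultivated and 7.68 ± 2.50 in non-cocultivated cells, and the ratio of the means was 1.60. The mean transcript length that RSEM assigned to ABCC3 was 3958 ± 376 bases in cocultivated and 3266 ± 309 bases in non-cocultivated libraries, with overlapping groups, and TPM divides by this length. A limma fit of log2(TPM + 1) over all genes without a filter gave an adjusted p of 0.0937.

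ABCC9 is SUR2, the sulphonylurea receptor that regulates potassium channels closed by ATP, rather than a transporter. Its levels were 15.3, 14.3, 15.01, 12.5 and 15.6 CPM in cocultivated libraries 1 to 5, against 8.76, 9.24, 7.25, 8.97 and 7.88 CPM in non-cocultivated ones. All cocultivated libraries lay well above all non-cocultivated ones, and the 1.73-fold change (log2 0.79 ± 0.08, edgeR adjusted p = 8.37e-06) had the smallest p of the members. The level was low in absolute terms, 2.43 ± 0.278 TPM in cocultivated and 1.47 ± 0.157 TPM in non-cocultivated cells, and 3.58% of the 75-base windows of its transcripts also occur in other genes. ABCC8, which is SUR1, did not pass the filter and had at most 2 counts in a cocultivated and 7 in a non-cocultivated library.

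ABCC1, or MRP1, exports glutathione conjugates, leukotriene C4 and several anticancer drugs. It had 87.4, 88.4, 90.7, 90.2 and 95.2 CPM in cocultivated libraries, against 79.1, 70.2, 70.8, 73.4 and 71.3 CPM in non-cocultivated ones. The groups did not overlap and the difference was higher in 5 of 5 batches, though small, at 1.24-fold (log2 0.31 ± 0.04, edgeR adjusted p = 9.32e-05).

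**Figure D3:**
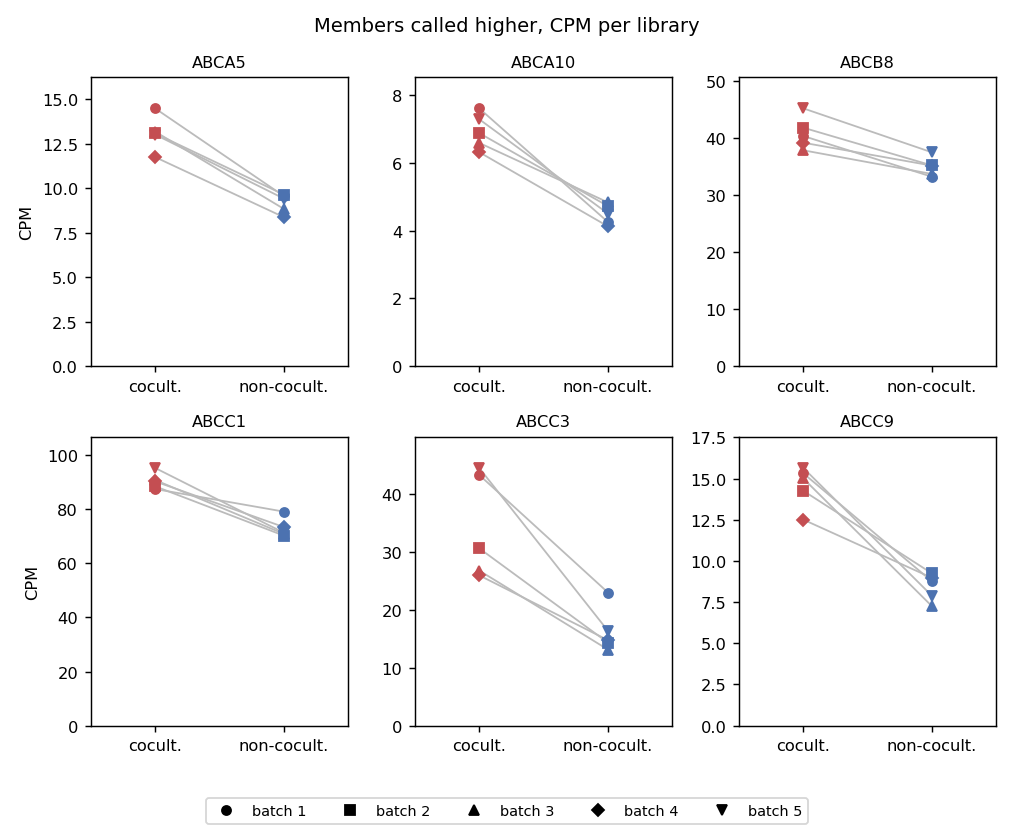
CPM per library (y axis, from 0) of the 6 members called higher, cocultivated at the left and non-cocultivated at the right of each panel. Symbols mark batches 1 to 5 and lines join the libraries of a batch, and each line falls towards the non-cocultivated side.

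The other tested exporters of this subfamily were not called. ABCC4 and ABCC5, which export cyclic nucleotides, had 10.7 to 14.3 and 9.70 to 13.5 TPM in cocultivated cells, against 13.4 to 15.3 and 10.2 to 12.6 TPM in non-cocultivated cells. ABCC10, a further MRP-type drug exporter, had 4.84 to 7.65 TPM in cocultivated and 5.46 to 6.82 TPM in non-cocultivated cells. ABCC2, the MRP of the apical liver membrane, had 0.26 to 0.68 against 0.22 to 0.69 TPM. ABCC6, whose loss causes pseudoxanthoma elasticum, had 0.01 to 0.15 against 0.07 to 0.18 TPM, and ABCC11 had 0.09 to 0.20 against 0.08 to 0.20 TPM. The last 2 had between 2 and 17 counts per library, and 15.2% of the windows of ABCC6 also occur in other genes, most of them in the pseudogene ABCC6P1. ABCC12 had no count in cocultivated cells and 5 counts in all non-cocultivated libraries together, and ABCC13 had none anywhere.

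Genes of glutathione handling, of glucuronidation and sulfation and of organic ion uptake were set beside these exporters. Of 17 tested genes of glutathione synthesis, conjugation and turnover, 8 were higher and 5 lower (median log2 fold change 0.07). The higher ones include genes that conjugate nothing, namely CHAC1, GCLM, GSR and the cystine carrier SLC7A11. CHAC1, which degrades glutathione, had 36.0 ± 5.47 CPM in cocultivated and 13.6 ± 0.639 CPM in non-cocultivated cells (log2 1.403 ± 0.09), and MGST1, a membrane-bound glutathione transferase, had 355 ± 29.8 against 237 ± 11.3 CPM (0.58 ± 0.06). GCLM, the modifier subunit of the enzyme that starts glutathione synthesis, had 119.5 ± 4.13 against 89.1 ± 3.02 CPM (0.42 ± 0.04), while the transferases GSTM2, GSTM4 and GSTK1 were lower, by log2 fold changes of -0.35, -0.22 and -0.18. Of 6 tested genes of glucuronidation and sulfation, 2 were higher and 2 lower. UGDH and UGP2, which make the sugar donor UDP-glucuronate, had log2 fold changes of 0.26 and 0.17, PAPSS2, which makes the sulfate donor, -0.75, and the bilirubin transferase UGT1A1 -1.14, at 1.06 ± 0.234 CPM in cocultivated and 2.34 ± 0.254 CPM in non-cocultivated cells. Of 9 tested uptake carriers for organic ions, 4 were higher and 2 lower. The anion carriers SLCO1B3 and SLCO3A1 and the carnitine and ergothioneine carrier SLC22A4 had log2 fold changes of 0.40, 0.71 and 0.34, against -1.28 for the cation carrier SLC22A3 and -0.64 for SLCO4A1. The edgeR adjusted p was 0.0226 for GSR and at most 0.0120 for each other gene named in these 3 lists. The fits of TPM did not call SLC22A4 (0.0883 to 0.238) or UGP2 (0.0842 to 0.176), and SLC22A4 was not called without batch 2 (0.0706). The shares called in these lists were 76.5%, 66.7% and 66.7%, against 33.6% of all tested genes.

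In the ABCA subfamily 2 of 6 tested members were higher and 2 lower, a share of 66.7% against 33.6% of all tested genes. ABCA5 and ABCA10, the higher pair, are neighbours at the end of a run of 5 ABCA genes on the minus strand of chromosome 17. ABCA5, a transporter of late endosomes and lysosomes, had 14.5, 13.1, 13.2, 11.8 and 13.0 CPM in cocultivated libraries 1 to 5, against 9.56, 9.65, 8.84, 8.38 and 9.42 CPM in non-cocultivated ones. ABCA10, whose substrate is not well established, had 7.62, 6.89, 6.60, 6.32 and 7.30 CPM against 4.26, 4.73, 4.84, 4.13 and 4.51 CPM. Neither gene overlapped between the groups, and both were higher in all 5 batches. The changes were 1.43-fold for ABCA5 (log2 0.51 ± 0.07, edgeR adjusted p = 5.14e-05) and 1.55-fold for ABCA10 (0.63 ± 0.08, adjusted p = 3.45e-05). Their annotated transcripts overlap by 318 exonic bases on the same strand, and 1.82% of the ABCA5 and 2.72% of the ABCA10 windows are shared with other genes, nearly all with each other. The remaining genes of the run, ABCA8, ABCA9 and ABCA6, had at most 7 counts in any library.

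**Figure D4:**
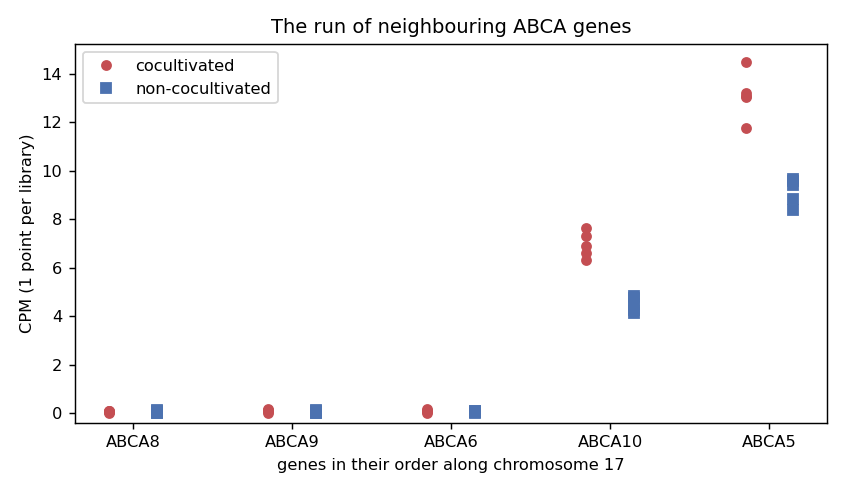
CPM per library (y axis) of the 5 neighbouring ABCA genes of chromosome 17 in their order along it (x axis), circles for cocultivated and squares for non-cocultivated libraries. ABCA8, ABCA9 and ABCA6 stay under 0.2 CPM in all 10 libraries, whereas ABCA10 and ABCA5 are expressed and lie higher in every cocultivated library.

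The promoters of the 2 neighbours that moved together, and that of ABCC9, the member with the smallest p, are shown because they differ in base composition although the genes moved the same way. Each sequence is the 250 bases before the transcript start from RefSeq (GRCh38.p14), 5′ to 3′ on the strand of the gene, which is the minus strand in these cases. Capitals mark a GC box (GGGCGG on either strand, written here as its reverse complement), the element bound by SP1.
ABCA5 (chr17:69327134-69327383): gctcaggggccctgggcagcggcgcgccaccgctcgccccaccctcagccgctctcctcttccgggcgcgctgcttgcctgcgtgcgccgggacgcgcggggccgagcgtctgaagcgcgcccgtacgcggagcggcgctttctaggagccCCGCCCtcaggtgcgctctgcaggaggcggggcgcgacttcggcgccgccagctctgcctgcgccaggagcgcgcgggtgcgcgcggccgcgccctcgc
ABCA10 (chr17:69244849-69245098): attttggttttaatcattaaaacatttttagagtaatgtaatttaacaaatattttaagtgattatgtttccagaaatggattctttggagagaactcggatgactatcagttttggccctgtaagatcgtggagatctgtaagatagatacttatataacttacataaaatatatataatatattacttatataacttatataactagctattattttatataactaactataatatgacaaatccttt
ABCC9 (chr12:21941427-21941676): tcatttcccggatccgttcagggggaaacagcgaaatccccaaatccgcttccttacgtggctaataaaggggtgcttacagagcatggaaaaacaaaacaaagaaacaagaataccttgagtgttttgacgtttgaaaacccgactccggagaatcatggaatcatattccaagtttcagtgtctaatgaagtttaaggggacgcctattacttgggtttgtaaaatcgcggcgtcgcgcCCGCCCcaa
The ABCA5 promoter is 79.2% G and C and holds 42 CpG dinucleotides. The ABCA10 promoter is 23.6% G and C with 2 CpG, and the other promoter listed for that gene is 31.2%. ABCC9 lies between them at 46.0% with 15 CpG, against a median of 58% over all 35116 promoters of the table. In GENCODE the ABCA5 and ABCA10 genes overlap by 536 bases on the same strand. The ABCA10 window printed here lies directly before the RefSeq start of ABCA10. It therefore probably falls inside the annotated ABCA5 gene, and may not be a stretch separate from that neighbour.

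ABCA2 and ABCA3 were the lower ABCA members. ABCA2, a late endosomal and lysosomal transporter linked to sphingolipid and cholesterol handling, had 17.4, 13.3, 13.0, 14.0 and 12.4 CPM in cocultivated libraries, against 24.8, 19.8, 18.6, 19.6 and 16.6 CPM in non-cocultivated ones. Cocultivated library 1 lay above non-cocultivated library 5, so the groups overlapped, and the gene was lower in all 5 batches (log2 -0.50 ± 0.11, 0.705-fold, edgeR adjusted p = 0.00334). On log2(TPM + 1) the limma adjusted p was 0.0647. ABCA3, which loads phosphatidylcholine into the lamellar bodies of lung cells, had 8.42, 7.33, 7.74, 7.23 and 7.69 CPM against 11.4, 9.32, 9.72, 9.68 and 9.21 CPM, with no overlap (log2 -0.36 ± 0.07, edgeR adjusted p = 0.00178). ABCA7, a phospholipid transporter, and ABCA13 were not called, at 2.35 to 3.72 and 0.78 to 1.24 TPM in cocultivated cells, against 2.11 to 3.77 and 1.16 to 1.45 TPM in non-cocultivated cells. With batch as a block the edgeR adjusted p of ABCA13 was 0.0399 (log2 -0.23), and without cocultivated library 3 that of ABCA7 was 0.0491 (log2 0.29).

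In the ABCB subfamily 1 of 5 tested members was higher and 3 lower, a share of 80% against 33.6% of all tested genes. The 3 mitochondrial transporters were called, in both directions. ABCB8, a transporter of the inner mitochondrial membrane, had 40.4, 41.9, 37.9, 39.2 and 45.2 CPM in cocultivated libraries, against 33.2, 35.2, 33.7, 35.2 and 37.5 CPM in non-cocultivated ones. The groups were parted by a narrow gap, and the change was 1.17-fold (log2 0.23 ± 0.05, edgeR adjusted p = 0.00537). ABCB10, an inner membrane protein needed for haem synthesis in red cell precursors of mice, had 37.9, 34.1, 37.2, 40.0 and 31.9 CPM against 40.2, 42.8, 45.1, 44.8 and 40.8 CPM. It was lower without overlap (log2 -0.24 ± 0.06, edgeR adjusted p = 0.00932), with an adjusted p of 0.0567 when both libraries of batch 2 were left out. ABCB6, a porphyrin transporter, had 7.13, 6.18, 5.92, 5.68 and 6.44 CPM against 10.1, 8.31, 8.44, 9.21 and 7.68 CPM. Its log2 fold change of -0.48 ± 0.09 (edgeR adjusted p = 8.61e-04) belongs to a gene that shares 45.2% of its windows with a row overlapping it on the same strand, AC068946.2, which had 0 to 63 counts, and the 2 rows summed gave -0.53.

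Of 19 genes of mitochondrial haem and iron-sulphur biogenesis, 3 were higher and 3 lower (median log2 fold change 0.0028), so that 31.6% were called, near the 33.6% of all tested genes, with 6 lower under the batch block and 9 lower with library totals. ALAS1, the first and rate-limiting enzyme of haem synthesis, had 216 ± 17.1 CPM in cocultivated and 154 ± 13.3 CPM in non-cocultivated cells (log2 0.49 ± 0.07, edgeR adjusted p = 9.50e-05). UROS and FECH, a middle and the last enzyme of that path, had log2 fold changes of 0.27 and 0.20. CPOX and ALAD, further enzymes of the path, and SLC25A38, a mitochondrial carrier that supplies it with glycine, had -0.29, -0.18 and -0.17, with edgeR adjusted p of 0.00945, 0.0138 and 0.0446. The call of SLC25A38 was lost without any one of cocultivated libraries 1 to 4 or non-cocultivated libraries 3 to 5 (0.0685 to 0.0922). It was also lost without batch 2, 3 or 4 (0.0771, 0.173 and 0.114). Calls were also lost for FECH in the fits of TPM (0.107 to 0.156), for CPOX without batch 2 (0.0555) and for ALAD without batch 2, 4 or 5 (0.0515 to 0.0699). On log2(TPM + 1) without a filter CPOX and ALAD were not called (0.0610 and 0.0727).

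The other ABCB members lie in the plasma membrane or in lysosomes. ABCB9, the lysosomal peptide transporter TAPL, had 9.29, 10.3, 8.99, 9.47 and 11.02 CPM in cocultivated libraries, against 10.9, 11.1, 10.6, 11.9 and 12.5 CPM in non-cocultivated ones. The groups overlapped in CPM, although each batch was lower (log2 -0.22 ± 0.07, edgeR adjusted p = 0.0321). In TPM the groups did not overlap, with 3.96 to 4.52 in cocultivated and 5.20 to 5.77 in non-cocultivated cells. The call of ABCB9 was lost in 9 of 26 alternatives. The adjusted p was 0.0554, 0.0737 and 0.0691 without cocultivated library 1, 3 or 4, and 0.0765 and 0.0695 without non-cocultivated library 4 or 5. Without batch 1, 2, 3 or 4 it was 0.0522, 0.0651, 0.0690 and 0.139. In its annotated exons ABCB9 also overlaps ARL6IP4, OGFOD2 and AC026362.1 on the opposite strand, none of which was called, and the strand setting of the counting is not given in the sources used here. ABCB11, the bile salt export pump of liver, had 0.21 to 0.55 against 0.19 to 0.30 TPM and was not called. ABCB1, the P-glycoprotein, had 5 counts over all cocultivated and 2 over all non-cocultivated libraries. TAP2, a subunit of the peptide transporter that feeds antigen presentation and an ABC protein under another symbol, had 45.0 ± 1.51 CPM in cocultivated and 40.2 ± 2.76 CPM in non-cocultivated cells (log2 0.16 ± 0.05, edgeR adjusted p = 0.0230). Its adjusted p was 0.0506 to 0.0635 without any one of cocultivated libraries 2 and 3 or non-cocultivated libraries 1 to 4, and it was 0.103 with library totals. Without batch 2, 3 or 4 it was 0.116, 0.107 and 0.0707, and without the low-count filter 0.0695. The limma fit of log2(TPM + 1) without a filter gave 0.110. TAP2 was the 1 called of 2 tested ABC genes with other symbols, and both were higher under the batch block.

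**Figure D5:**
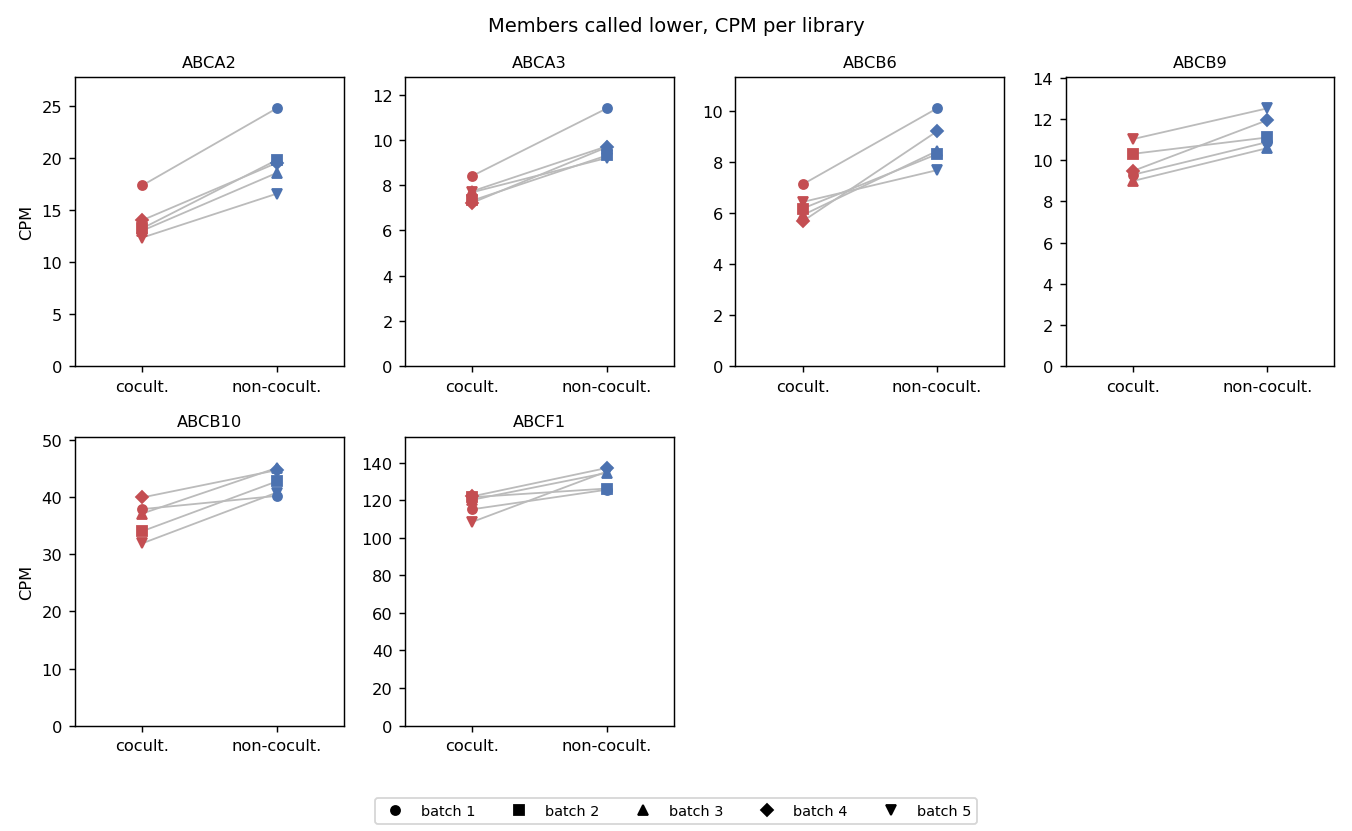
CPM per library (y axis, from 0) of the 6 members called lower, cocultivated at the left and non-cocultivated at the right of each panel. Symbols mark batches 1 to 5 and lines join the libraries of a batch, and each line rises towards the non-cocultivated side while the ranges of ABCA2 and ABCB9 overlap.

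Of the ABCD members described here, neither ABCD3 nor ABCD4 was called. ABCD3, the peroxisomal importer of branched acyl groups and bile acid precursors, had 44.8 to 52.5 against 53.8 to 59.0 TPM. Its groups did not overlap in TPM but did in CPM, and it was called only with batch as a block (log2 -0.09, edgeR adjusted p = 0.0496), with library totals and in the fits of TPM. ABCD4, which works in lysosomal export of cobalamin, had 11.8 to 18.4 against 13.8 to 19.1 TPM and was not called, except without both libraries of batch 1 (adjusted p = 0.0297). ABCD2, a peroxisomal fatty acid transporter, had at most 14 counts in any library.

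Genes of peroxisomal oxidation and membrane import, listed with enzymes that elongate or activate fatty acids, did not share 1 direction. Of the 15 tested genes of this list, 5 were higher and 2 lower (median log2 fold change 0.01). This share of 46.7% stands against 33.6% of all tested genes, and the higher genes include the elongating enzyme ELOVL1 and the activating enzyme ACSL1. Lower genes numbered 5 under the batch block, 4 with library totals or the upper quartile and 1 without the low-count filter. ELOVL1, which elongates saturated very long chain fatty acids, had 108 ± 8.08 CPM in cocultivated and 85.2 ± 3.19 CPM in non-cocultivated cells (log2 0.35 ± 0.05, edgeR adjusted p = 2.22e-04). PEX19, the receptor that brings ABCD proteins to the peroxisomal membrane, and the branched-chain oxidase ACOX3 had log2 fold changes of 0.24 and 0.35. SLC27A2, an activating enzyme for very long chain fatty acids, had 1.94 ± 0.236 against 3.84 ± 0.477 CPM (-0.99 ± 0.12). AMACR, a racemase of branched acyl groups, had -0.16, with an edgeR adjusted p of 0.0172 that was 0.0503 without non-cocultivated library 4. It was not called without batch 3 or 4, without the low-count filter or in the fits of TPM (0.0521 to 0.0725).

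The ABCE and ABCF proteins include the 2 most abundant members, and the log2 fold changes of the 5 rows lay between -0.16 and -0.01. ABCF1, which binds the initiation factor eIF2 and ribosomes, had 115, 122, 120.2, 122 and 108 CPM in cocultivated libraries, against 126, 126, 134, 137 and 135 CPM in non-cocultivated ones. The groups did not overlap, and the difference of 0.89-fold (log2 -0.16 ± 0.04, edgeR adjusted p = 0.0115) was lost when both libraries of batch 3 were left out (0.0535). ABCE1, which splits ribosomes after termination, had 344, 358, 373, 371 and 319 CPM against 365, 399, 405, 388 and 387 CPM. It was lower in 5 of 5 batches. Its groups overlapped in CPM but not in TPM, with 115 to 157 TPM in cocultivated and 158 to 171 TPM in non-cocultivated cells. Its edgeR adjusted p was 0.0511 (log2 -0.14 ± 0.05) without and 0.0120 with batch as a block. Cocultivated library 5 was the lowest for both ABCF1 and ABCE1.

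ABCF2 and ABCF3, relatives of ABCF1 without membrane domains, were not called in the main fit. The ABCF2 row ENSG00000033050 had 43.7 to 49.3 TPM in cocultivated and 46.7 to 51.6 TPM in non-cocultivated cells, and the row ENSG00000285292 had 41.6 to 47.8 against 47.6 to 55.8 TPM. The latter row was called lower with library totals (edgeR adjusted p = 0.0187). It was also called on log2(TPM + 0.1) and log2(TPM + 1) with the filter (limma adjusted p 0.0349 and 0.0342). In the reference annotation 96.6% of the windows of ENSG00000285292 occur in other genes, most of them in ENSG00000033050, so the split between the rows is uncertain. Their counts summed gave 200.5 ± 10.9 CPM in cocultivated and 207.9 ± 10.6 CPM in non-cocultivated cells (log2 -0.05 ± 0.05, edgeR adjusted p = 0.459). ABCF3 had 41.4 to 44.3 against 44.5 to 47.5 TPM and a log2 fold change of -0.01 ± 0.03. Its groups did not overlap in TPM but did in CPM.

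Among 14 genes that work with these proteins in ribosome recycling or on eIF2, 5 were higher and none lower (median log2 fold change 0.04), so that 35.7% were called, near the 33.6% of all tested genes. This balance depended on the scaling, with 3 higher and 3 lower for library totals, and 2 were lower under the batch block. The recycling factor MCTS1 had 89.5 ± 6.10 CPM in cocultivated and 75.6 ± 3.83 CPM in non-cocultivated cells (log2 0.24 ± 0.05, edgeR adjusted p = 0.00297). ZNF598, a sensor of collided ribosomes, and the eIF2 subunit EIF2S2 had log2 fold changes of 0.14 and 0.19. Neither was called in the fits of TPM (adjusted p 0.216 to 0.330 and 0.0968 to 0.205), nor was ZNF598 with library totals (0.0825) or without the low-count filter (0.0595).

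No ABCG member was tested. ABCG2, the breast cancer resistance protein, had 40 counts over all cocultivated and 57 over all non-cocultivated libraries, of which non-cocultivated library 5 held 27. ABCG4, an exporter of sterols in brain, had 13 counts in either group, and ABCG5 and ABCG8, which together pump plant sterols out of gut and liver cells, had 19 and 0 counts against 13 and 3. The remaining 12 untested rows were likewise low, with at most 14 counts in any library. ABCA4, a retinoid transporter of photoreceptors, had 21 counts over all cocultivated and 51 over all non-cocultivated libraries and was lower in 5 of 5 batches, and without the low-count filter it had a log2 fold change of -1.13 ± 0.38 (edgeR adjusted p = 0.0455). The phospholipid transporter ABCB4 had 22 counts against 47, ABCC8 had 5 against 20, and ABCD2 had 42 against 40. ABCA6, ABCA8, ABCA9 and ABCB5 had between 10 and 21 counts in either group, and ABCA12, a lipid transporter of skin, had 0 against 3. In TPM the 16 untested rows did not exceed 0.25 in any library.

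Transcription factors reported to act on ABC genes were examined as a list of 21 tested genes. Of these, 5 were higher and 7 lower (median log2 fold change -0.02), a share of 57.1% against 33.6% of all tested genes. The fatty acid receptor PPARD had 75.4 ± 4.47 CPM in cocultivated and 44.0 ± 0.368 CPM in non-cocultivated cells (log2 0.78 ± 0.04, edgeR adjusted p = 5.11e-08). The hypoxia factors EPAS1 and HIF1A moved in opposite directions. EPAS1 had a log2 fold change of 0.32, at 114 against 91.7 CPM. HIF1A had -0.28, at 449 against 545 CPM (edgeR adjusted p = 0.00385). NFE2L2, the gene of NRF2, had a log2 fold change of 0.11 with overlapping groups (edgeR adjusted p = 0.0434). The xenobiotic receptor NR1I2 had a log2 fold change of 1.52 at a low level, 1.301 ± 0.259 against 0.448 ± 0.0990 CPM. The lipid synthesis factor SREBF1 had 32.3 ± 0.622 against 80.2 ± 10.9 CPM (log2 -1.31 ± 0.08, edgeR adjusted p = 8.42e-08). PPARG, the main regulator of adipocyte genes, had 88.7 ± 3.38 against 124.6 ± 2.79 CPM, and the dioxin receptor AHR 46.1 ± 5.25 against 69.2 ± 3.51 CPM. With library totals or upper quartile scaling 3 of this list were higher.

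Promoters of 34 of the 42 symbols are in the RefSeq table, among them those of 4 of the 6 higher members and of all 6 lower ones. The higher members ABCC3 and ABCC1 have no promoter listed there, so they were not searched. In each listed promoter the 250 bases before the start were searched on both strands for core letters of elements bound by transcription factors. The antioxidant response element core, TGACNNNGC, bound by NRF2, was present for 5 of the 6 lower members, none of the 4 higher members and 8 of 24 tested members, against 13.2% of all 27305 genes in the table. It overlapped the hypoxia core in ABCB6, the AHR core in ABCA3 and the GC box in ABCB9. A gene counted if any of its listed promoters held the core. For ABCA2 this was 1 of 2 listed promoters, and for ABCB9 1 of 3. The stretches that hold the antioxidant core are shown for the lower members. The core is in capitals as read on the strand of the gene, where GCNNNGTCA is its reverse complement.
ABCB6 (chr2:219219086-219219126, minus strand): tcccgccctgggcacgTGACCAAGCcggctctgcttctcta
ABCA2 (chr9:137029011-137029051, minus strand): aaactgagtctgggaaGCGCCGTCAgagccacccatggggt
ABCA3 (chr16:2340901-2340941, minus strand): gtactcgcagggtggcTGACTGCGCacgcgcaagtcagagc
ABCB9 (chr12:122974622-122974662, minus strand): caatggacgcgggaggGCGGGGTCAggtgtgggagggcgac
ABCF1 (chr6:30571280-30571320, plus strand): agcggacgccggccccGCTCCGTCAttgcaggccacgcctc
The GC box was present for all 6 lower and 3 of the 4 higher members, against 46.2% of all genes. The AHR core, GCGTG, was present for 5 of 6 lower and 1 of 4 higher members, against 36.2% of all genes, and the hypoxia core, ACGTG, which shares CGTG with it, for 3 of 6 and 1 of 4, against 21.7%. Neither the core TGATGNAA, bound by ATF4, nor the direct repeats of AGGTCA bound by PPAR (spacer of 1 base) and LXR (spacer of 4 bases) was found in the window of a called member. The first of these occurs for 3.89% of genes, the others for 0.0220% and 0.0183%. The 9 promoters listed for the lower members had a median of 69.6% G and C and the 5 listed for the higher members 46.0%, and the part of base composition in the matches was not tested. A match describes letters in a window, and binding was not measured.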

How the data were processed

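Stranded mRNA libraries of PC3 cells were sequenced, per the labels' protocols. RSEM 1.3.3, Bowtie2 2.4.4 and bcl2fastq are named in the submitters' processing notes, but no source used here gives the build, annotation or strand setting. The authors deposited 1 table per library with expected counts, TPM, FPKM (not used) and RSEM's mean transcript length, per the file headers. Of the expected counts, 83.8% were whole within 0.005, zeros included, and 59.2% of those above 0. Rounded counts went into edgeR 4.0.16 under R 4.3.3 (filterByExpr with minimum count 10 and total 15, TMM, quasi-likelihood F test). P-values were adjusted by Benjamini-Hochberg across 15690 tested genes, with calls at an adjusted p under 0.05. Each SE was computed as the size of the log2 fold change over the root of its F statistic. The deposited TPM values served for levels and, in limma 3.58.1, as alternatives. The labels' batch tag pairs the libraries, and deviations from the group means of libraries that share a batch correlated at 0.329, -0.019, 0.0734, 0.104 and 0.281 across genes. Batch as a block was an alternative.

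The members and lists were chosen with earlier results of these data known. Some members and list genes entered the fit but are not reported here. Every reported member is named, those called with their value in every library. Of each pathway list up to 3 called genes per direction are given by smallest p. Named beyond these are SLC7A11, GSR and ACSL1, and HIF1A and NFE2L2, whose proteins bind elements searched in the promoters. In simulated counts of 15690 genes, 50 genes each were changed 1.25-, 1.5-, 2- and 4-fold, of which 49, 49, 48 and 50 passed the filter, and the test recovered 24, 36, 41 and 50 of these (49.0%, 73.5%, 85.4% and 100%) and called 8 unchanged genes. Shared 75-base windows, overlaps and gene order were taken from GENCODE v29 by Ensembl identifier, and promoters from RefSeq by symbol. No 2 libraries of a group were duplicates (chi-square per degree of freedom 4.93 to 53.5).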

Additional observations from a re-analysis of the deposited data

Results flagged for a closer look

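In 54 groups of 5 libraries, 1 group for each tested member and condition, 2 held a library far from the other 4 in CPM, where chance sets apart about 1 in 20 groups. ABCC10, a drug exporter that was not called, had 12.5 CPM in cocultivated library 1 and 9.67 to 10.0 CPM in the other cocultivated libraries. ABCA3, the lipid transporter called lower, had 11.4 CPM in non-cocultivated library 1 and 9.21 to 9.72 CPM in the other non-cocultivated libraries. Both libraries belong to batch 1, and the call of ABCA3 stood in all 26 alternatives, those without this library included.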

How the results depend on the processing

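Over 26 alternatives none of the 12 called members changed direction, and 296 of 312 values stayed past the threshold. ABCA3, ABCA5, ABCA10, ABCB6, ABCC1 and ABCC9 were called in every one. Calls were lost for ABCB9 in 9, for ABCA2 in the 3 fits of TPM (adjusted p 0.0596, 0.0647 and 0.157), and in 1 each for ABCC3 and ABCB8 (log2(TPM + 1) without a filter, 0.0937 and 0.0512), ABCB10 and ABCF1. ABCE1 passed in 12. Members higher numbered 6, except 4 on log2(TPM + 1) without a filter and 6 to 7 over the fits that left out libraries. Members lower numbered 4 to 7 over those fits, 9 with batch as a block and 10 with library totals. Over all genes, 2801 were higher and 2478 lower with TMM, against 2216 and 3555 with library totals, 3478 and 3487 with the block, 1733 and 2956 on log2(TPM + 0.1), 1740 and 2975 on log2(TPM + 1), 1499 and 2325 without its filter, and 2116 to 3041 and 1702 to 2675 without libraries. The cause was not tested. No scaling moved the median of all genes by over 0.1. Summing the ABCF2 rows, or ABCB6 with its overlapping row, was chosen after seeing the data.

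Only members not called changed sign. In the fits of TPM the log2 fold change of ABCA7 was -0.0182 and -0.0185, that of ABCC5 -0.00353 and -0.00288 and that of ABCC6 -0.291 and -0.0498. ABCC5 had -0.0420 with library totals, -0.0087 with the upper quartile and -0.000832 without a count filter. ABCC6 had -0.0209 with library totals and -0.0809 with limma-voom, which gave 0.00319 for ABCC11. Leaving out 1 library gave -0.0839 to 0.0546 for ABCC5, -0.182 to 0.301 for ABCC6, -0.187 to 0.170 for ABCC11, -0.0697 to 0.00929 for ABCF2 (ENSG00000033050) and -0.0265 to 0.000264 for ABCF3. Leaving out a batch gave -0.0490 to 0.0761 for ABCC5 (also -0.0396 and -0.00115), -0.377 to 0.435 for ABCC6 (also -0.210) and up to 0.00384 for ABCC10. ABCC6 and ABCC11 had under 20 counts per library, so their values rest on few reads.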
